A study of Mus musculus with 4 samples.

Results

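The genes described here are 9 genes of Leydig cell hormone production, *Star*, *Cyp11a1*, *Hsd3b1*, *Hsd3b6*, *Cyp17a1*, *Hsd17b3*, *Srd5a1*, *Lhcgr* and *Insl3*. They were taken by gene name from the deposited expression table, in which each has 1 row, and they are 9 of its 55820 rows. The table holds RNA sequencing of whole testes from male C57BL/6J mice at postnatal day 10 (P10), with 2 control libraries and 2 libraries from *Mps1*sKO mice. In *Mps1*sKO mice, floxed *Mps1* (gene symbol *Ttk*) is deleted by a *Stra8*-cre transgene, which is active in germ cells from early spermatogonia on, so the deletion is directed at germ cells and not at Leydig cells. The labels call the other group only "control", and they do not say whether the controls carry the floxed alleles or the transgene, or whether a library came from 1 mouse. The p-values below therefore measure the spread between these libraries. The comparison asks whether the Leydig genes differed between control testes and testes in which deletion of *Mps1* was directed at germ cells.

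Leydig cells lie between the seminiferous tubules and make androgens from cholesterol. Luteinizing hormone (LH) acts on its receptor LHCGR, STAR brings cholesterol to the inner mitochondrial membrane, and CYP11A1 cuts its side chain to give pregnenolone. The enzymes 3β-HSD (HSD3B1 and HSD3B6) and CYP17A1 carry it to androstenedione, and HSD17B3 reduces this to testosterone, which SRD5A1 can reduce further. In mice, fetal Leydig cells are replaced after birth by an adult generation, and in the fetal testis HSD17B3 is made in Sertoli cells, where androstenedione is turned into testosterone. INSL3 is a second Leydig hormone, which acts in the descent of the testes.

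The libraries held between 23311689 and 28607746 counts, and the 9 genes together took between 0.0795% and 0.0879% of a library. *Ttk* was at 27.9 and 32.6 CPM (the count relative to library size, scaled by edgeR's TMM method) in control testes and at 13.0 and 12.2 CPM in *Mps1*sKO testes, below both controls, with an adjusted p of 0.0461 from edgeR. *Ttk* transcript was thus lower in *Mps1*sKO testes but still present. Control replicate 2 stood apart in some genes, which were noticed in the values and not taken from a list. It had 106 CPM of *Nr4a1*, a transcription factor induced by hormones, against 32.3, 27.5 and 33.1 CPM in control replicate 1 and the *Mps1*sKO libraries, so values are also given without this library where it mattered. Of the 6 fat cell markers, *Fabp4*, *Adipoq* and *Cfd* were highest there, with 129, 23 and 16 counts against at most 28, 7 and 1 elsewhere, and *Cidec* had 6 counts against at most 4. *Plin1*, the most abundant of the 6, was instead lowest there, at 11.9 CPM against 18.8, 22.2 and 24.0 CPM, and *Lep* had no count.

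The 3β-HSD genes are near copies of each other, and their sequences bear on whether their counts can be told apart. The coding sequences of *Hsd3b1* and *Hsd3b6* in GENCODE M21 both have 1122 bases, of which 112 differ, with at most 72 identical bases in a row. No stretch of 150 bases, the length of a read, in *Hsd3b1* transcript 202 was found in another *Hsd3b* gene (0 of 1706 stretches), and 6 of 1653 stretches of *Hsd3b6* transcript 201 were, all 6 in *Hsd3b3*. Only exact matches were counted, and how reads with mismatches were assigned was not tested. The 90 coding bases, within 1 exon, in which the genes differ least and most are printed here. Capitals mark the bases that differ, and all lie on the minus strand of chromosome 3 in GRCm38.

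The most similar stretch, coding bases 213 to 302 with 2 differences, lies at chr3:98856002-98856091 in *Hsd3b1* and at chr3:98807773-98807862 in *Hsd3b6*.
Hsd3b1: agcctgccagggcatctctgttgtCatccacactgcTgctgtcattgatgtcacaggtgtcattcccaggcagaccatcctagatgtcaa
Hsd3b6: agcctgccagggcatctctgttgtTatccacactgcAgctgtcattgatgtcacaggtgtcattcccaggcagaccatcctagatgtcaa
The least similar stretch, coding bases 54 to 143 with 18 differences, lies at chr3:98857822-98857911 in *Hsd3b1* and at chr3:98810904-98810993 in *Hsd3b6*.
Hsd3b1: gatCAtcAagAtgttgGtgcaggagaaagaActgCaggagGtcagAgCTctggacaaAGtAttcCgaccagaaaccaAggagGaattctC
Hsd3b6: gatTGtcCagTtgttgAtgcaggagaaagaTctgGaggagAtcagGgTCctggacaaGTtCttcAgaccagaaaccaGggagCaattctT

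All 9 genes passed edgeR's filter on low counts, and none of the 9 passed the test for a genotype difference. At an adjusted p below 0.05 from edgeR's quasi-likelihood test, 0 of 9 genes were called, where 0.0292% of the 20561 tested genes were. At an unadjusted p below 0.05 the number was again 0 of 9, against 9.30% of all tested genes, and DESeq2 also called 0 at either threshold. The log2 fold change, *Mps1*sKO relative to control, was above 0 for 7 genes and below 0 for *Star* and *Cyp17a1*, while 50.1% of all tested genes were above 0. The median was 0.18 over the 9 genes and 0.00027 over all tested genes, and leaving out any 1 library gave 0.14 to 0.17. For 3 of the 9 genes (33.3%), namely *Cyp11a1*, *Hsd3b6* and *Insl3*, the *Mps1*sKO values were both higher than the controls. Groups without overlap were found for 41.4% of all tested genes, and for 20.3% with *Mps1*sKO above. A whole testis was sequenced, so a different share of Leydig cells and a different amount of RNA per Leydig cell cannot be told apart, in either direction.

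**Figure D1:**
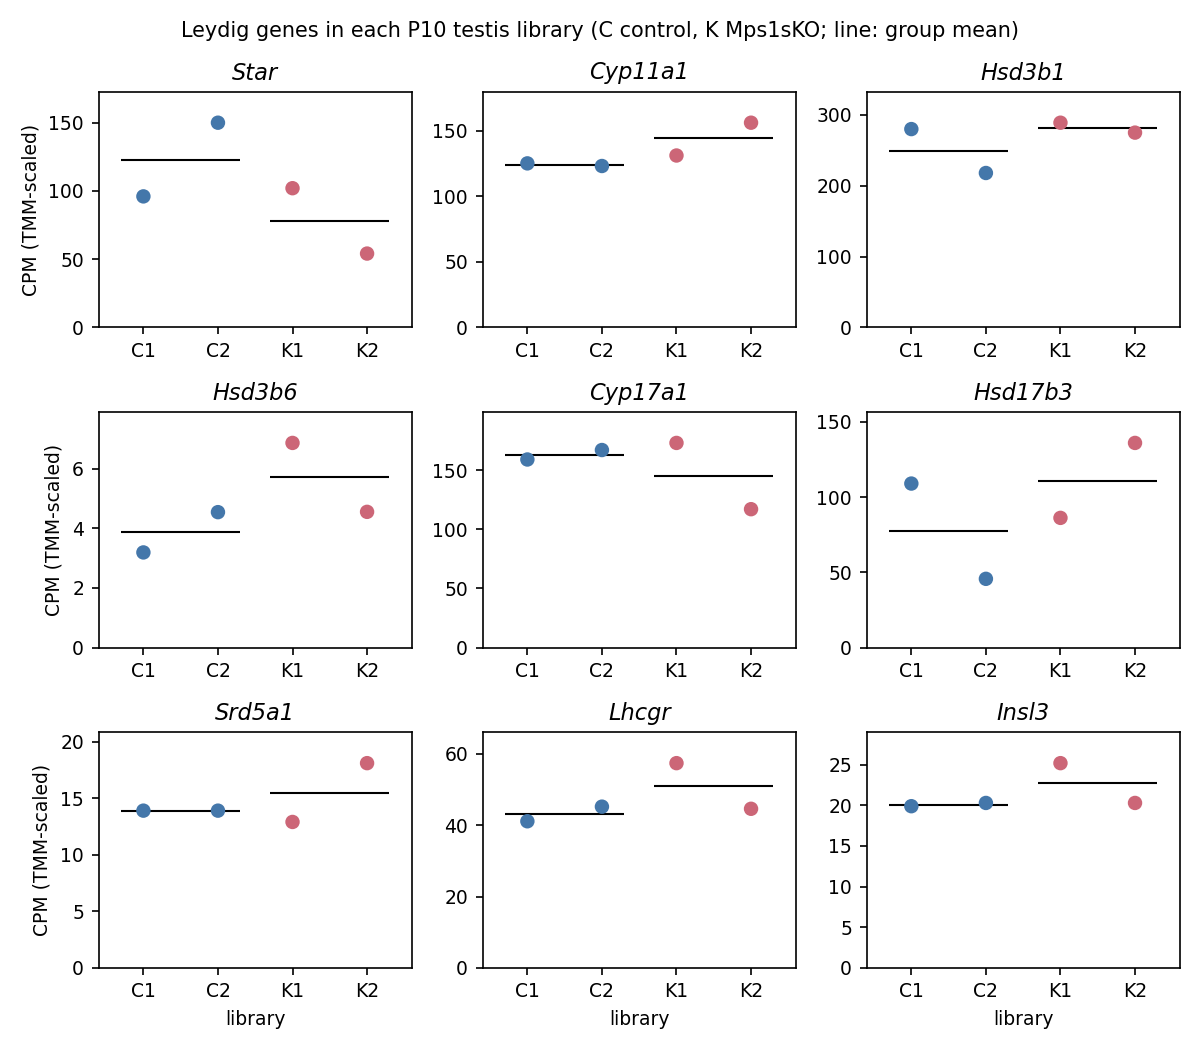
Level of each of the 9 genes in CPM (TMM-scaled, linear axis from 0) in control libraries 1 and 2 (C1, C2, blue) and *Mps1*sKO libraries 1 and 2 (K1, K2, red), with a line at each group mean. In relative terms *Star* and *Hsd17b3* have the widest range over the 4 libraries, 2.78-fold and 2.98-fold, and their groups overlap.

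*Lhcgr* (ENSMUSG00000024107, chromosome 17 from 88716481 to 88791990, minus strand of GRCm38) encodes the LH receptor at the top of the pathway. Its level was 41.1 and 45.2 CPM in controls against 57.4 and 44.6 CPM in *Mps1*sKO testes, so the lower *Mps1*sKO library lay inside the control range. The means were 43.2 ± 2.95 and 51.0 ± 9.05 CPM (SD, n = 2 each). On the log2 scale the fold change was 0.24 (SE 0.134, 95% interval −0.074 to 0.55, edgeR adjusted p = 0.611), and it was 0.046 without *Mps1*sKO replicate 1.

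*Star* (ENSMUSG00000031574, chromosome 8 from 25806555 to 25815982, plus strand) encodes the cholesterol carrier whose synthesis is the acute, LH-regulated step. It had 96.0 and 150 CPM in control and 102 and 54.1 CPM in *Mps1*sKO libraries. Control replicate 2 was the highest library and *Mps1*sKO replicate 2 the lowest, while the other libraries of each genotype were close to each other with the *Mps1*sKO one on top. The means were 123 ± 38.4 and 78.2 ± 34.0 CPM (SD, n = 2 each). This gave a log2 fold change of −0.66 (SE 0.298, 95% interval −1.35 to 0.034, adjusted p = 0.551 from edgeR). *Star* had the smallest unadjusted p of the 9 genes with edgeR, 0.0597. The fold change rested on the end libraries, since leaving out control replicate 2 gave −0.30 and leaving out *Mps1*sKO replicate 2 gave −0.27. Leaving out control replicate 1 gave −0.95 and leaving out *Mps1*sKO replicate 1 gave −1.19.

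*Cyp11a1* (ENSMUSG00000032323, chromosome 9 from 58006411 to 58027023, plus strand) encodes the side-chain cleavage enzyme. It was even between the controls, at 125 and 123 CPM, and stood at 131 and 156 CPM in the *Mps1*sKO libraries, both above the controls. The means were 124 ± 1.38 and 144 ± 17.5 CPM (SD, n = 2 each), and the log2 fold change was 0.22 (SE 0.105, 95% interval −0.025 to 0.46, adjusted p = 0.573 from edgeR). Without *Mps1*sKO replicate 2 it was 0.089. Of its 4804 exon bases, 3.02% are shared with *Gm17322* on the same strand, a gene at 2.63 to 3.05 CPM.

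*Hsd3b1* (ENSMUSG00000027871, chromosome 3 from 98852194 to 98859794, minus strand) is the 3β-HSD gene used in mouse Leydig cells of all ages, the adrenal gland and the ovary. It had 280 and 218 CPM in control and 289 and 275 CPM in *Mps1*sKO libraries, so only control replicate 2 stood lower. The means were 249 ± 43.9 and 282 ± 9.71 CPM (SD, n = 2 each). Their log2 fold change of 0.18 (SE 0.125, edgeR adjusted p = 0.676) was 0.0058 without control replicate 2.

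*Hsd3b6* (ENSMUSG00000027869, chromosome 3 from 98805504 to 98814443, minus strand) is known as the 3β-HSD gene of the adult Leydig generation. It had 86 and 131 counts in control and 159 and 122 counts in *Mps1*sKO libraries, which is 3.19 and 4.54 CPM against 6.86 and 4.55 CPM. The *Mps1*sKO libraries were above the controls, but the nearest values of the groups differed only in the third digit. Whether reads of the far more abundant *Hsd3b1* added to these counts was not tested. The means were 3.87 ± 0.954 and 5.71 ± 1.63 CPM (SD, n = 2 each). The log2 fold change of 0.55, the highest of the 9, had a standard error of 0.263 and a 95% interval of −0.059 to 1.17 (adjusted p = 0.567 from edgeR), and it ranged from 0.23 without *Mps1*sKO replicate 1 and 0.32 without control replicate 1 to 0.82 without *Mps1*sKO replicate 2 and 0.83 without control replicate 2.

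In the sum of all 7 *Hsd3b* rows of the table, 98.2% of the counts were from *Hsd3b1* and 1.75% from *Hsd3b6*. *Hsd3b7*, a bile acid enzyme, had 2 to 5 counts a library, and *Hsd3b2*, *Hsd3b3*, *Hsd3b4* and *Hsd3b5* had 0 to 2. The summed counts gave 0.18 for the log2 fold change (SE 0.123, edgeR adjusted p = 0.658). In deposited FPKM (fragments per kilobase of gene length, scaled to library size, which allows levels of different genes to be compared), *Hsd3b1* was 85.3 and 46.7 times the level of *Hsd3b6* in the control libraries and 40.9 and 58.7 times in the *Mps1*sKO libraries, and these ranges overlap.

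*Cyp17a1* (ENSMUSG00000003555, chromosome 19 from 46667165 to 46673172, minus strand) encodes the enzyme that makes androgens from progestins. It had 159 and 167 CPM in control and 173 and 117 CPM in *Mps1*sKO libraries, the highest and the lowest value both being *Mps1*sKO. The means were 163 ± 5.78 and 145 ± 39.7 CPM (SD, n = 2 each). Its log2 fold change was −0.17 (SE 0.167, 95% interval −0.56 to 0.22, adjusted p = 0.773 from edgeR), and its sign turned to 0.086 without *Mps1*sKO replicate 2.

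*Hsd17b3* (ENSMUSG00000033122, chromosome 13 from 64058266 to 64089230, minus strand) encodes the enzyme of the testosterone step. It varied most of the 9 genes, with 109 and 45.7 CPM in control and 86.2 and 136 CPM in *Mps1*sKO libraries, a 2.98-fold range. *Mps1*sKO replicate 2 was highest and control replicate 2 lowest, the reverse of *Star* at both ends. The means were 77.6 ± 45.1 and 111 ± 35.5 CPM (SD, n = 2 each). The resulting log2 fold change of 0.52 (SE 0.369, 95% interval −0.33 to 1.38, adjusted p = 0.675 from edgeR) was 0.024 without control replicate 2, 0.15 without *Mps1*sKO replicate 2 and 1.28 without control replicate 1.

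*Srd5a1* (ENSMUSG00000021594, chromosome 13 from 69573449 to 69611442, minus strand) encodes the 5α-reductase that immature Leydig cells use. It had 13.9 CPM in each control library and 12.9 and 18.1 CPM in *Mps1*sKO libraries, on either side of the controls. The means were 13.9 ± 0.0135 and 15.5 ± 3.64 CPM (SD, n = 2 each). The fold change was 0.16 on the log2 scale (SE 0.173, edgeR adjusted p = 0.790), and its sign turned to −0.10 without *Mps1*sKO replicate 2. The gene lies within *Nsun2*, which is on the other strand and shares no exon base with it, and 16.4% of its exon bases are shared with *Gm17108* on the same strand, which had 17 to 31 counts a library.

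*Insl3* (ENSMUSG00000079019, chromosome 8 from 71689214 to 71690575, plus strand) encodes the peptide hormone. It had 19.9 and 20.3 CPM in control and 25.2 and 20.3 CPM in *Mps1*sKO libraries, so control replicate 2 and *Mps1*sKO replicate 2 were equal to the third digit. The means were 20.1 ± 0.242 and 22.8 ± 3.47 CPM (SD, n = 2 each). This is a log2 fold change of 0.18 (SE 0.135, edgeR adjusted p = 0.699), and it was 0.014 without *Mps1*sKO replicate 1. Its exon 2 is also an exon of *Jak3* on the same strand, from 71690172 to 71690575, which is 64.8% of the 623 exon bases of *Insl3*. The sources used here do not say how reads there were assigned, so the *Insl3* level is uncertain. *Jak3*, an immune cell kinase, had 5.72 to 7.39 CPM. The first 60 bases of the shared exon are shown, at chr8:71690172-71690231 on the plus strand of GRCm38, because they belong to both genes.
Insl3: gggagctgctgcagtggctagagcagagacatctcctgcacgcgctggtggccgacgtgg

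**Figure D2:**
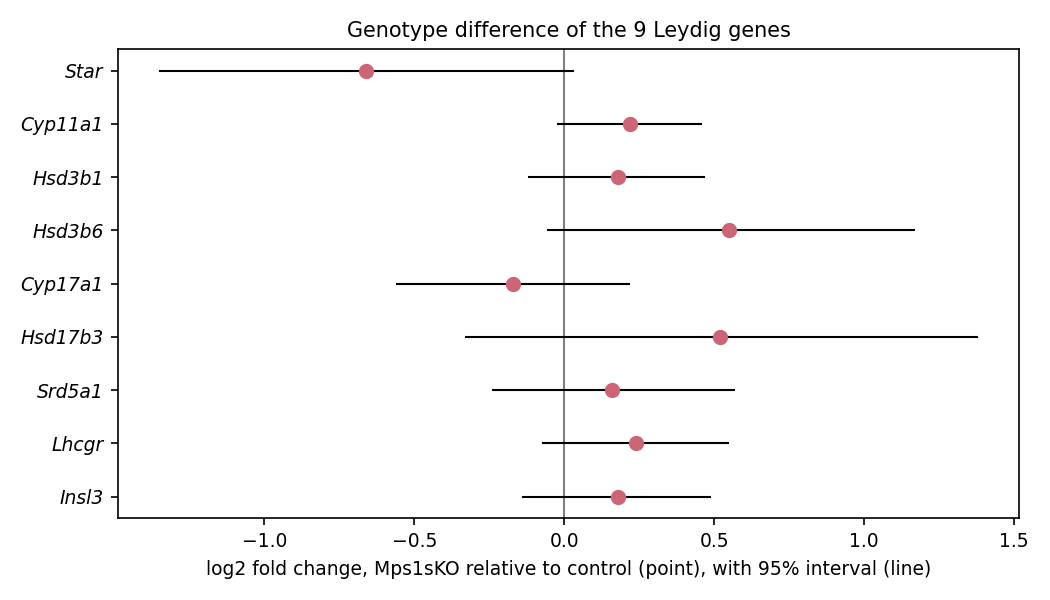
Log2 fold change of each gene, *Mps1*sKO relative to control, from edgeR (points) with its 95% interval (lines). Every interval includes 0, from *Star* at −0.66 to *Hsd3b6* at 0.55, and the widest is that of *Hsd17b3*.

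Set side by side in FPKM, the levels overlapped in part. *Hsd3b1* was highest, with 117 to 155 FPKM over the 4 libraries, 2.11 times the mean of *Hsd17b3* and without overlap. *Hsd17b3* (32.7 to 97.9 FPKM) and *Cyp17a1* (42.2 to 62.3 FPKM) overlapped, and each was higher in 2 libraries. *Insl3* (31.7 to 40.3 FPKM), *Cyp11a1* (25.4 to 32.4 FPKM) and *Star* (13.1 to 36.3 FPKM) came next, below *Cyp17a1* without overlap, and each overlapped with the next of these 3. *Hsd17b3* overlapped with *Insl3* and *Star* too, and in control replicate 2 *Star* was above it, at 36.3 against 32.7 FPKM. *Star* was 3.97 times the mean of *Lhcgr*, with no overlap. *Lhcgr* (5.33 to 7.47 FPKM) and *Srd5a1* (4.43 to 6.21 FPKM) overlapped, and *Hsd3b6* was lowest, with 1.76 to 3.79 FPKM. The levels of *Insl3* rest on a length of which the larger part is shared with *Jak3*.

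**Figure D3:**
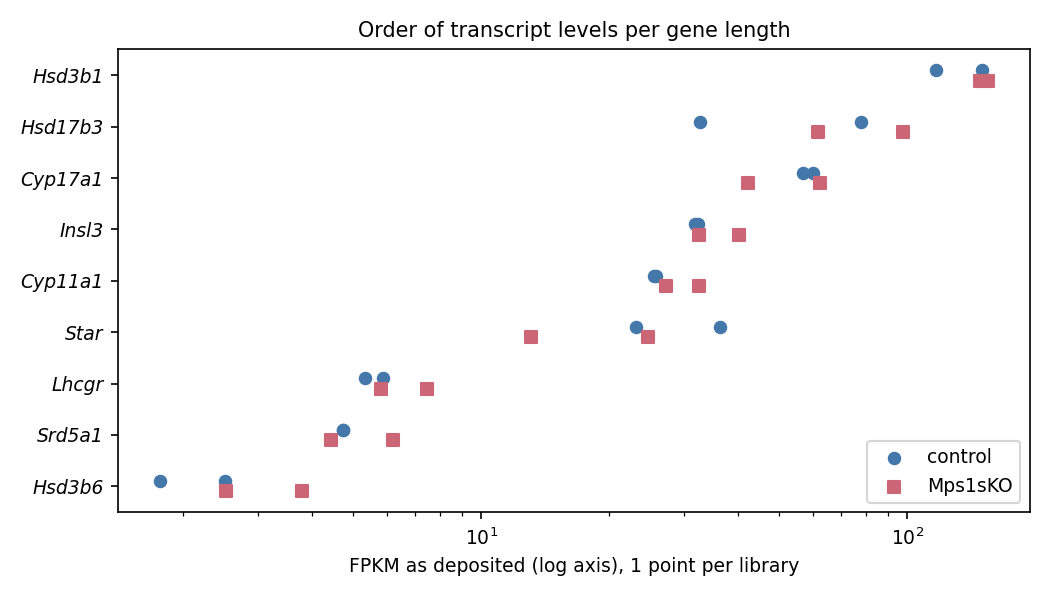
Level per gene length (deposited FPKM, log axis) of the 9 genes, ordered by mean, with 1 point per library (blue circles control, red squares *Mps1*sKO). *Hsd3b1* stands alone at 117 to 155 FPKM and *Hsd3b6* alone at 1.76 to 3.79 FPKM.

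For 9 of the 9 genes, the larger of the gaps within a genotype exceeded the fold change between the genotypes (log2 scale), and for *Hsd17b3* both gaps did. A gap compares single libraries, while the fold change compares the groups, and the share of all tested genes with larger gaps was not counted. The 9 of 9 therefore cannot be read as a trait of these genes. Between the control libraries, *Star* differed by 0.65 on the log2 scale and between the *Mps1*sKO libraries by −0.92 (replicate 2 minus replicate 1). Among the 12755 tested genes with a mean of at least 5 CPM, 0.925% had a gap as large between the controls and 0.431% had one as large between the *Mps1*sKO libraries. For *Hsd17b3* the same gaps were −1.26 and 0.66, and 0.188% and 1.25% of genes had gaps as large. The other 7 genes had smaller gaps, of −0.36 to 0.51 in control and −0.59 to 0.48 in *Mps1*sKO libraries. As a result the FPKM ratio of *Hsd17b3* to *Star* was 3.37 and 0.899 in controls against 2.49 and 7.45 in *Mps1*sKO testes, and the groups overlap. The summed level of the 9 genes varied less, with 848 and 788 CPM in control and 884 and 826 CPM in *Mps1*sKO libraries.

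Some genes of other cells had the same highest and lowest libraries, and they were picked after the values had been seen. *Amh*, the anti-Müllerian hormone of immature Sertoli cells, had 228 and 114 CPM in control and 207 and 337 CPM in *Mps1*sKO libraries, which is the library order of *Hsd17b3*. This order is shared by 9.22% of the 12755 genes. *Hsd17b1*, another 17β-HSD enzyme that fetal Sertoli cells make, had 24.1 and 9.33 CPM in control and 26.5 and 37.5 CPM in *Mps1*sKO libraries, with the same highest and lowest library. *Star* had its highest and lowest libraries in common with 7 of the 10 germ cell markers, while *Zbtb16*, *Dppa4* and *Gfra1* had others. *Stra8*, a gene of meiotic entry, had 112 and 151 CPM in control and 86.7 and 65.5 CPM in *Mps1*sKO libraries, and *Dazl*, a germ cell RNA-binding protein, had 466 and 583 against 463 and 333 CPM. Both had the order shared by 8.91% of the 12755 genes, which is not the full order of *Star*. The order of *Star* was shared by 6.69% of them. No other order has control replicate 2 highest and *Mps1*sKO replicate 2 lowest. These values are a description over 4 libraries, and their part in the levels of *Star* and *Hsd17b3* was not tested.

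**Figure D4:**
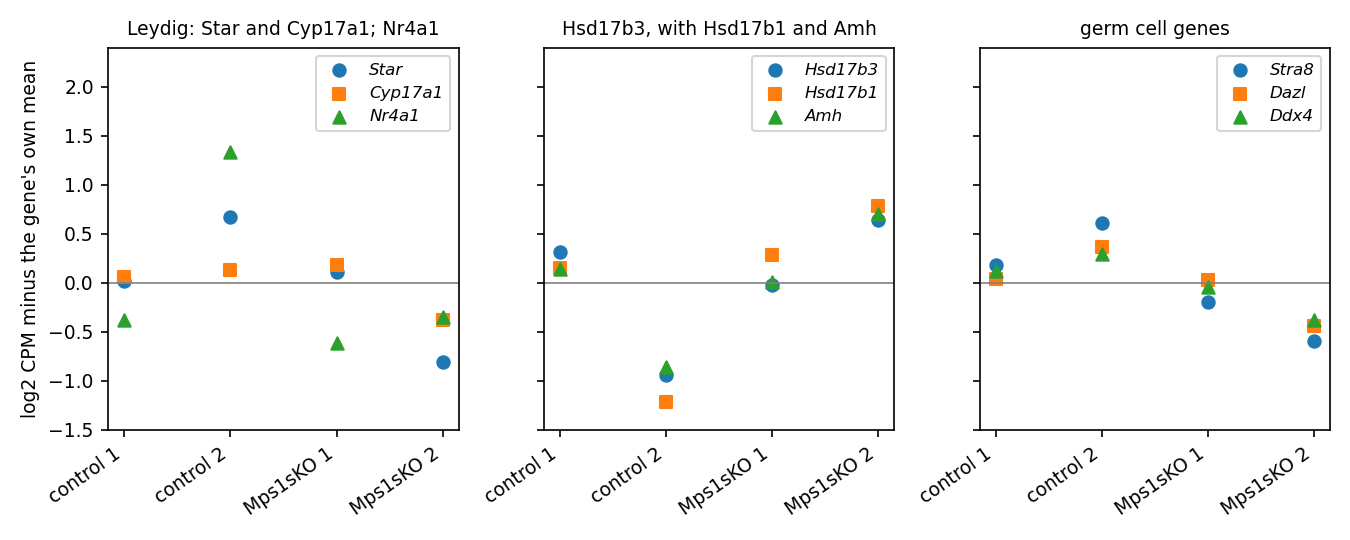
Log2 CPM of each gene minus its own mean over the 4 libraries, in 3 panels with *Star*, *Cyp17a1* and *Nr4a1*, with *Hsd17b3*, *Hsd17b1* and *Amh*, and with the germ cell genes *Stra8*, *Dazl* and *Ddx4*. *Star* and the germ cell genes are highest in control 2 and lowest in *Mps1*sKO 2, and the genes of the middle panel are lowest in control 2 and highest in *Mps1*sKO 2.

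The median profile of the 9 genes was −0.068 and −0.070 in controls against 0.13 and −0.022 in *Mps1*sKO testes (log2 deviation from each gene's mean). The genes with the nearest profile, by root mean square distance over the 4 libraries among genes of at least 5 CPM, were *Trak2*, *Gm28370*, *Alg2*, *Mdm4* and *Ap4e1*, at distances of 0.0096 to 0.011. Their log2 fold changes were 0.12 to 0.13, and none of them is one of the listed pathway genes.

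The genes around the pathway were read from 6 lists, and no gene of any list passed an adjusted p of 0.05 with edgeR. Of 23 genes of cholesterol supply, all tested, 2 had an unadjusted p below 0.05, both higher in *Mps1*sKO testes (3.92% of all tested genes were called in this direction and 5.37% in the other). These were *Hmgcs1*, an enzyme of cholesterol synthesis and the most abundant of the list in FPKM, at 261 and 275 against 296 and 348 CPM, and *Fdps*, a later enzyme of that route, at 8.43 and 8.01 against 10.1 and 11.1 CPM. Their log2 fold changes were 0.26 and 0.37. The list's median was 0.025, and −0.042 without *Mps1*sKO replicate 2. *Scarb1*, the lipoprotein receptor that feeds cholesterol to steroid cells, had 220 and 182 against 213 and 238 CPM.

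While 3.92% of all tested genes were higher at an unadjusted p below 0.05, this held for 2 of the 5 electron transfer partners of the P450 enzymes. None of the 5 was lower at this threshold. *Fdxr*, the reductase that supplies electrons for CYP11A1, was the most abundant in FPKM, with 142 and 118 CPM in control and 166 and 158 CPM in *Mps1*sKO libraries, or 0.32 as log2 fold change (edgeR adjusted p = 0.505). *Cyb5b* had 168 and 173 against 193 and 199 CPM, a log2 fold change of 0.21. The median of the 5 was 0.045, and it was 0.19 without *Mps1*sKO replicate 2.

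Of 18 other steroid-converting enzymes, 17 were in the table and 10 were tested. *Hsd17b1* alone had an unadjusted p below 0.05, as did 9.30% of all tested genes (3.92% higher and 5.37% lower). Its log2 fold change was 0.94 (SE 0.377, edgeR adjusted p = 0.527), and 0.41 without control replicate 2. The most abundant in FPKM was *Hsd17b12*, a lipid enzyme of many tissues, at 88.1 to 106 CPM over the 4 libraries. The median of the 10 was 0.11, and 4 of the 17 had at most 3 counts in every library.

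Receptors, cAMP signalling genes and transcription factors formed another list. Of 22 genes, 21 were tested, 4 were higher and 1 was lower at an unadjusted p below 0.05, and the median was 0.15. Among all tested genes, 3.92% were called higher and 5.37% lower. *Nr5a1*, which encodes the steroidogenic factor SF-1, had 192 and 185 CPM in control and 223 and 232 CPM in *Mps1*sKO libraries, or 0.27 as log2 fold change (edgeR adjusted p = 0.497). *Gata4*, another activator of these genes, had 211 and 178 against 251 and 255 CPM, or 0.38 as log2 fold change (edgeR adjusted p = 0.494). *Gata6* had 61.3 and 45.4 against 64.1 and 75.8 CPM, a log2 fold change of 0.39. *Prlr*, the prolactin receptor, had a log2 fold change of 0.25, and *Prkar1a*, a regulatory subunit of protein kinase A and the most abundant of the list in FPKM, had 371 and 357 against 397 and 384 CPM. Sertoli cells also make *Nr5a1* and *Gata4*.

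The lower gene was *Nr4a1*, a transcription factor that LH induces in Leydig cells and that activates steroid genes. Its log2 fold change of −1.19 (SE 0.451, edgeR adjusted p = 0.515) rested on control replicate 2, without which it was −0.092.

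The last lists hold genes named for the Leydig generations. In a whole testis they cannot separate the generations, and which cells made these transcripts was not tested. Of 9 genes of fetal and immature Leydig cells, 7 were tested and none had an unadjusted p below 0.05, with a median of 0.12, and the most abundant in FPKM, *Gsta4*, had 263 to 305 CPM. In this list *Dlk1* had no count in any library, *Mc2r* had 3 to 6 counts and *Cyp11b1* had 5 to 22. Of 9 genes of adult Leydig cells, 6 were tested and 2 were higher at an unadjusted p below 0.05, namely *Prlr* and *Vcam1*, the latter with 75.9 and 90.7 against 99.8 and 107 CPM and a log2 fold change of 0.31. In this direction 3.92% of all tested genes were called. The median of the 6 was 0.17. *Gstm2* was the most abundant of the list in FPKM, at 702 to 872 CPM, and 3 of the 9 had at most 3 counts in every library. Some genes, such as *Prlr* and *Akr1c14*, are in more than one list.

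The levels of markers of other testis cells are given beside those of the Leydig genes, and none of them passed an adjusted p of 0.05 with edgeR. Of 10 germ cell markers, 8 had an unadjusted p below 0.05 and all 8 were lower in *Mps1*sKO testes, with a median of −0.42 and summed levels of 1250 and 1480 CPM against 1130 and 887 CPM. At this threshold 5.37% of all tested genes were called lower and 3.92% higher. Of 11 tested Sertoli markers, 10 were above 0 and 2 had an unadjusted p below 0.05, with a median of 0.24, beside 0.18 for the Leydig genes. Their summed level was 5330 and 5760 CPM in control and 7030 and 6190 CPM in *Mps1*sKO libraries. *Clu* made up more of this than the other markers together, and without it the sum was 2430 and 2170 against 2630 and 2870 CPM. Markers of peritubular myoid cells, interstitial fibroblasts, macrophages and endothelial cells, 6 each, had medians of −0.10, 0.037, −0.026 and 0.081 and no gene with an unadjusted p below 0.05. The part of these cells in the levels of the Leydig genes was not tested.

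Markers of adrenal cortex, epididymis and fat were also read, and the part of these tissues in the levels of the Leydig genes was not tested. *Cyp11b1* and *Mc2r* are also in the list of fetal and immature Leydig cell genes. The adrenal markers *Cyp11b1*, *Cyp11b2*, *Cyp21a1* and *Mc2r* were each below 2 CPM, with 5 to 22 counts of *Cyp11b1* and 0 or 1 count of *Cyp11b2* a library, and the 5 markers of the adrenal list summed to 5.44 to 7.73 CPM, of which *Akr1b7* gave most. None of the 6 epididymis markers passed the filter, and together they had 0.224 to 0.485 CPM. Of 6 adipocyte markers, 2 were tested, *Fabp4* with a log2 fold change of −2.34 (edgeR adjusted p = 0.494) and *Plin1* with 0.59 (edgeR adjusted p = 0.502). The 6 summed to 20.1 and 18.0 CPM in control and 22.9 and 24.9 CPM in *Mps1*sKO libraries. *Plin1*, which gave most of this, is also made by Leydig cells.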

How the data were processed

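The authors deposited 1 table with raw counts per gene, without normalization, and FPKM values for 4 libraries (150 bp paired-end reads, NEBNext Ultra kit). The submitters' processing notes name HISAT2 2.0.5, featureCounts, DESeq2 1.16.1 and mm10, while strandedness and annotation are not given in the sources used here. The deposited FPKM values equal the counts divided by gene length and a library size. The exon lengths of the 9 genes match GENCODE M21 (GRCm38). The count test was edgeR 4.0.16 under R 4.3.3 (filterByExpr, TMM, quasi-likelihood F test) over 20561 of 55820 rows, with Benjamini-Hochberg adjustment over all of them. The common biological coefficient of variation was 0.106. A floor of 3 counts is 0.104 to 0.129 CPM, for counting error only. An exact permutation test of 2 against 2 libraries cannot give a p below 0.333, so none was used. Alternatives used DESeq2 1.42.0 and limma 3.58.1. Named genes were all 9, *Ttk*, from each pathway list those with an unadjusted p below 0.05 and the most abundant by FPKM, the *Hsd3b* rows, and the 5 nearest profiles (Python 3.11.15, pandas 2.3.3). Others, such as *Scarb1*, *Amh* and *Fabp4*, were named after their values were seen. The 9 genes and the lists were chosen with earlier results of these data known. The fits were also run on counts simulated with the spread estimated from these libraries. That simulation held no shift of a single library, so it does not show how the fits behave with such shifts.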

Additional observations from a re-analysis of the deposited data

How the results depend on the processing

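The number of all genes past an adjusted p of 0.05 was 6 with edgeR. It was 3 with at least 10 counts in every library, 3 with limma-voom, 34 with DESeq2, 390 without the filter on low counts and 2 with the replicate number as a block (replicate block). Among the 9 Leydig genes it was 0 in each of these fits except without the filter, where it was 2, *Star* (adjusted p = 8.75e-07) and *Hsd17b3* (adjusted p = 0.000488, both from edgeR). With the other scalings, the minimum of 10 counts, DESeq2, limma-voom and the replicate block, the adjusted p of *Star* was between 0.531 and 1. Without the filter the prior degrees of freedom were infinite, against 5.64 with the filter, so the quasi-likelihood F test used no gene-specific spread around the trend. The biological coefficient of variation still differed by gene in that fit, at 0.19 for *Star* and 0.0875 for *Cyp11a1*. The libraries of *Star* and *Hsd17b3* overlap between the genotypes. Genes of the 9 with an unadjusted p below 0.05 numbered 0 with edgeR, 5 without the filter and 1, *Star*, with limma-voom. Among all tested genes the numbers were 1912 of 20561 with edgeR and 3003 of 35262 without the filter. With limma-voom, which used the same filter as edgeR, 1923 genes were below this threshold. Same-numbered libraries shared only a number, and the correlation of their deviations over genes was −0.238. A crossed replicate block, which pairs each control with the *Mps1*sKO library of the other number, was added after the data were seen. The labels give no basis for it. With it 550 genes, 2 of the 9 (*Star* and *Hsd17b3*) and, unadjusted, 5 of the 9 were called. The unadjusted number over all genes is not given for this fit. The gaps of *Star* and *Hsd17b3* run in opposite directions in the 2 genotypes, and this pairing absorbs such gaps. These calls therefore carry no weight. The median of the 9 genes was 0.16 to 0.19 under the alternatives other than the crossed block and 0.14 to 0.17 with each library left out. Leaving out 1 library, fitted without a test, gave *Cyp17a1* −0.48 to 0.086 and *Srd5a1* −0.10 to 0.38, and the sign of the other 7 genes did not turn. Both turned without *Mps1*sKO replicate 2.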

Other observations

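Control replicate 2 was also highest for relatives of *Nr4a1*. *Nr4a2* had 5.38 and 11.5 CPM in control and 4.01 and 4.37 CPM in *Mps1*sKO libraries, and *Nr4a3* had 1.45 and 3.54 against 1.34 and 1.19 CPM. *Junb*, an immediate early gene of the AP-1 family, had 7.95 and 22.5 CPM in control and 5.83 and 8.66 CPM in *Mps1*sKO libraries. In the same library *Star* was highest, at 150 CPM, and *Hsd17b3* lowest, at 45.7 CPM. These genes were picked after their values had been seen. For genotype, the edgeR adjusted p was 0.497 for *Nr4a2*, 0.535 for *Nr4a3* and 0.527 for *Junb*. Whether control replicate 2 differed from the other libraries was not tested.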
